A study of Mus musculus with 9 samples.

Results

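Aminoacyl-tRNA synthetases are the enzymes that load each tRNA with its amino acid, the step that turns the genetic code into protein sequence. One set works in the cytosol, and a second set, also encoded in the nucleus, is imported into mitochondria to serve the few proteins made there. When charging falls short, uncharged tRNA activates the kinase GCN2, which leads to translation of the transcription factor ATF4, and several cytosolic synthetase genes are known targets of ATF4. The transcripts were chosen by gene symbol, as single-symbol probe sets with a synthetase name, with 1 probe set per gene taken as the brightest over all arrays. This gave 35 of the 18193 genes measured. The cytosolic set held 20 genes, of which Gars (glycine) and Kars (lysine) also supply the mitochondrial enzyme, and the mitochondrial set held 15. Symbol matching left out Pars2, the mitochondrial proline enzyme, which is given separately.

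RNA came from intestinal epithelial cells of untreated mouse pups killed on postnatal day 0 and was measured on 9 Affymetrix arrays, 3 per genotype. Control pups were Tfr1fl/fl, with floxed alleles of Tfr1, the receptor for transferrin-bound iron. Knockout pups were Tfr1 IEC-KO, which lack the receptor in intestinal epithelium. Rescue pups were Tfr1 IEC-KO;ROSA26 Tfr1R654A/+, which carry the same knockout and, from the ROSA26 locus, 1 copy of the receptor with the R654A change, known to weaken transferrin binding strongly. The labels do not name the Cre line, the sex of the pups or whether pups were pooled, so p-values measure only the spread between these arrays, which may be technical. The comparisons ask how loss of the receptor, and its return in a form that binds transferrin poorly, go with the transcripts of the charging enzymes.

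Cells were shaken off pieces of small intestine and proximal colon in EDTA, with no sort. All 10 epithelial markers lay above the dimmest 40% of genes in every group. Of these 10, 5 were higher and 1 lower in the arrays labelled knockout than in control, at limma adjusted p under 0.05. Over all genes 5.29% were higher and 8.77% lower, the shares to set beside each count of markers higher or lower here. The 14 fibroblast markers measured exceeded control by a median of 3.80 (log2) in knockout replicate 1, 3.06 in replicate 2 and 0.17 in replicate 3. The log2 of their summed signal ran from 10.7 to 11.4 in control, from 11.6 to 15.1 in knockout and from 11.7 to 12.5 in rescue arrays, and 5 of them lay in the dimmest 40% in control against 0 in knockout. The median of the 7 markers of pancreas acinar cells lay 2.12 above control in knockout replicate 2 and 1.29 above it in rescue replicate 3. In knockout replicates 1, 2 and 3 the medians of smooth muscle markers lay 4.13, 2.92 and 0.15 above control, of neurons and glia 3.19, 1.46 and 0.20, of leukocytes 1.28, 0.92 and 0.20, and of mesothelium 1.11, 2.11 and 0.93. The 10 leukocyte markers went both ways, with 2 higher and 1 lower in knockout. The log2 of their summed signal was lower in knockout (12.7 to 12.9) than in control (13.1 to 13.4). Of 5 mesothelium markers 3 were higher in knockout, and this list shares Krt19 with the epithelial list. Replicate 3 was near control for fibroblast and smooth muscle markers. Its mesothelium median lay above control, with 2 of the 5 markers below the control mean. Tfrc, the targeted gene, read 10.21, 10.78 and 9.88 on control arrays and 10.76, 11.16 and 9.07 on those labelled knockout, with replicate 3 below every control array and replicate 2 above every one. Its mean change was 0.04 (limma adjusted p = 0.97). What part of the transcript its probe set reads is not given in the sources used here, so it checks neither the deletion nor the labels. Xist, which marks the inactive X chromosome, read 12.02 to 12.75 in control and knockout and 6.45 to 6.83 in rescue, and the Y-linked Eif2s3y read 9.36 to 9.70 in rescue and 2.34 to 2.88 elsewhere. Rescue genotype and sex therefore cannot be told apart.

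The promoters of the synthetases were read from RefSeq (build GRCm38.p6; the array files name no build), as 250 bases before to 50 bases after the annotated start. Of the 35 genes, 27 matched the table, 13 of the 20 cytosolic and 14 of the 15 mitochondrial ones. The composite element bound by ATF4 with its C/EBP partners was searched as TGATGNAA on both strands, which reads TTNCATCA in reverse. It was found in 5 of 27 synthetase promoters and in 3.97% of all 32851 promoters. All 5 were cytosolic genes (5 of 13), and 0 of 14 mitochondrial promoters held it. The 30 bases around 1 match in each gene are shown because the 5 genes with the element did not move alike in the knockout arrays: Gars rose, Yars fell, and Aars, Iars and Tars did not pass the test. Capitals mark the match, each sequence is on the strand of its gene, and the position is that of the first base of the match relative to the start.
Gars, chr6:55037960-55037989, plus strand, match at -30: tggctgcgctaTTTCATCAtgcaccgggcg
Yars, chr4:129189895-129189924, plus strand, match at 4: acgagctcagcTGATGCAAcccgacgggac
Aars, chr8:111033840-111033869, plus strand, match at 10: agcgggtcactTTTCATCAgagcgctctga
Iars, chr13:49682126-49682155, plus strand, match at 8: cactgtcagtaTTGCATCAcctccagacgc
Tars, chr15:11399655-11399684, minus strand, match at -15: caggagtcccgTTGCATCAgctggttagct

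Gars was the sole synthetase to rise, so the bases before its start are shown in full, with the same element in capitals near the 3′ end.
Gars, chr6:55037751-55038000, plus strand: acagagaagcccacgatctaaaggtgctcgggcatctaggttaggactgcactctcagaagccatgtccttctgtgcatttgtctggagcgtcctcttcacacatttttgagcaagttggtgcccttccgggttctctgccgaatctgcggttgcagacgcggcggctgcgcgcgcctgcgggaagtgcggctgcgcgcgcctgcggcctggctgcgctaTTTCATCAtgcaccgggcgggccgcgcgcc
The E-box CACGTG, the site of Myc, Max and related factors, was found in 5 of 27 synthetase promoters (Aars, Farsb, Iars, Tars and Ears2) and in 7.15% of all promoters. The element of the mitochondrial regulator NRF1, searched on both strands as GCGC, 1 base of any kind and TGCGC, was found in 5 of 27 (Farsb, Kars, Tars, Iars2 and Mars2) and in 4.6% of all promoters. Matches of different motifs overlapped in 0 cases. The promoters of Sars, Fars2 and Nars2, which fell in the knockout arrays, held none of the 3 motifs in this window. Rars and Vars, which also fell, were not among the genes with a promoter entry. A match is a run of letters and was not tested as a binding site.

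Between knockout and control, synthetase transcripts lay below control nearly throughout, and glycine was the exception. Of the 35 genes, 34 had a change below 0 (97.1%, against 56.1% of all genes), and the median change was -0.31 against -0.04 over all genes. Past the test, 1 rose and 6 fell (20.0%, against 14.1% of all genes called). By direction, 2.86% rose and 17.1% fell, against 5.29% and 8.77% of all genes. At an unadjusted p under 0.05 there were 12, against 30.1% of all genes. In 11 genes all 3 knockout arrays lay below all 3 control arrays, where 19.7% of all genes did so. Fewer cells of a type and less RNA per cell cannot be told apart in such samples. The median moved to -0.17, with 27 of 35 genes below 0, without knockout replicate 3, and to -0.45 without knockout replicate 2. With arrays weighted by their quality it was -0.06, with 24 of 35 below 0, and with quantile normalization -0.24, with 31 of 35 below 0.

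**Figure D1:**
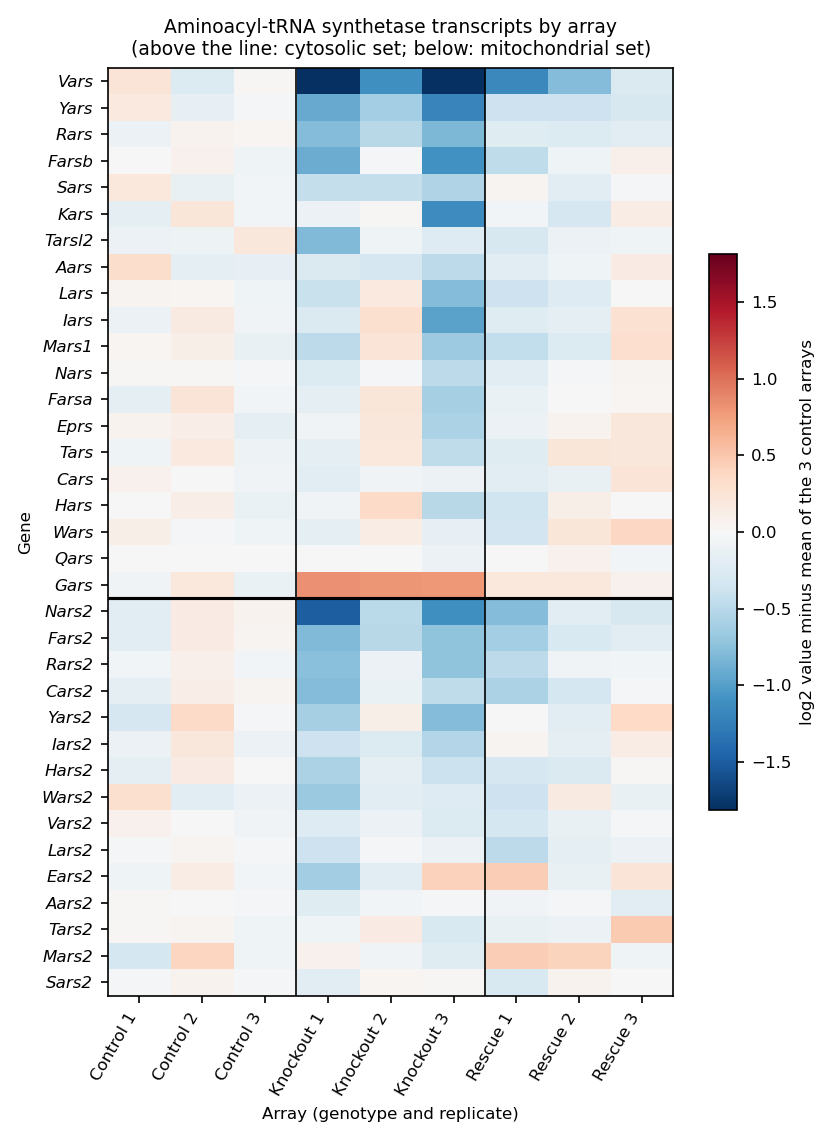
Log2 value of each of the 35 synthetase transcripts (rows) on each of the 9 arrays (columns), minus the mean of the 3 control arrays, with the cytosolic set above the thick line. Gars is above control on all 3 knockout arrays, Vars, Yars, Rars and Sars are below it on all 3, and knockout replicate 2 is the palest knockout column for most other genes.

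Gars, which charges tRNA with glycine in both compartments, read 9.77, 10.02 and 9.70 on control arrays, 10.66, 10.63 and 10.61 on knockout arrays, and 10.02, 10.02 and 9.91 on rescue arrays. The knockout arrays were the highest, nearly equal to each other, and overlapped neither other group. The rise from control to knockout was 0.81 ± 0.10 (log2, SE, n = 3 per group), or 1.75-fold (limma adjusted p = 0.0026). Against knockout replicate 3 alone, the array with few fibroblast transcripts, the rise was 0.78, a value that rests on 1 knockout array. With the fibroblast markers as a covariate it was 0.77 (adjusted p = 0.018). Gars had 1 probe set.

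Vars, the valine enzyme, had the largest fall of the 35. It read 9.98, 9.50 and 9.77 on control arrays, 7.94, 8.64 and 7.95 on knockout arrays, and 8.58, 8.97 and 9.49 on rescue arrays. Every knockout array lay below every control array, while knockout replicate 2 lay above rescue replicate 1. The change from control to knockout was -1.57 ± 0.27, or 2.98-fold lower (limma adjusted p = 0.0079). Yars, which charges tyrosine, read 9.87, 9.55 and 9.67 on control arrays, 8.78, 9.08 and 8.50 on knockout arrays, and 9.33, 9.32 and 9.40 on rescue arrays. The 3 genotypes did not overlap, with knockout lowest and rescue between. Its change was -0.91 ± 0.15, or 1.88-fold lower (adjusted p = 0.0070).

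Rars, the arginine enzyme of the multi-synthetase complex, read 10.65, 10.82 and 10.79 on control arrays, 9.97, 10.25 and 9.94 on knockout arrays, and 10.54, 10.51 and 10.55 on rescue arrays. Again the groups did not overlap and rescue lay between the others. The change from control to knockout was -0.70 ± 0.11, or 1.63-fold lower (limma adjusted p = 0.0051). Against control, knockout replicate 3 alone gave changes of Vars, Yars and Rars of -1.80, -1.20 and -0.81. With the fibroblast markers as a covariate they were -1.64, -1.15 and -0.81, and each still passed the test.

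Sars, the serine enzyme, which also charges the tRNA that becomes selenocysteine tRNA, read 10.21, 9.89 and 9.98 on control arrays and 9.59, 9.60 and 9.48 on knockout arrays. Rescue arrays read 10.07, 9.84 and 10.0001. Knockout overlapped neither other group, while rescue and control overlapped. The fall was smaller than those above, at -0.47 ± 0.11, or 1.38-fold (limma adjusted p = 0.030). Its other probe set read -0.51. The call ended without control replicate 1 (adjusted p = 0.10), control replicate 3 (0.088), knockout replicate 1 (0.062) or knockout replicate 2 (0.057). It also ended when fibroblast markers were a covariate (0.073) and when knockout replicate 3 was the sole knockout array.

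**Figure D2:**
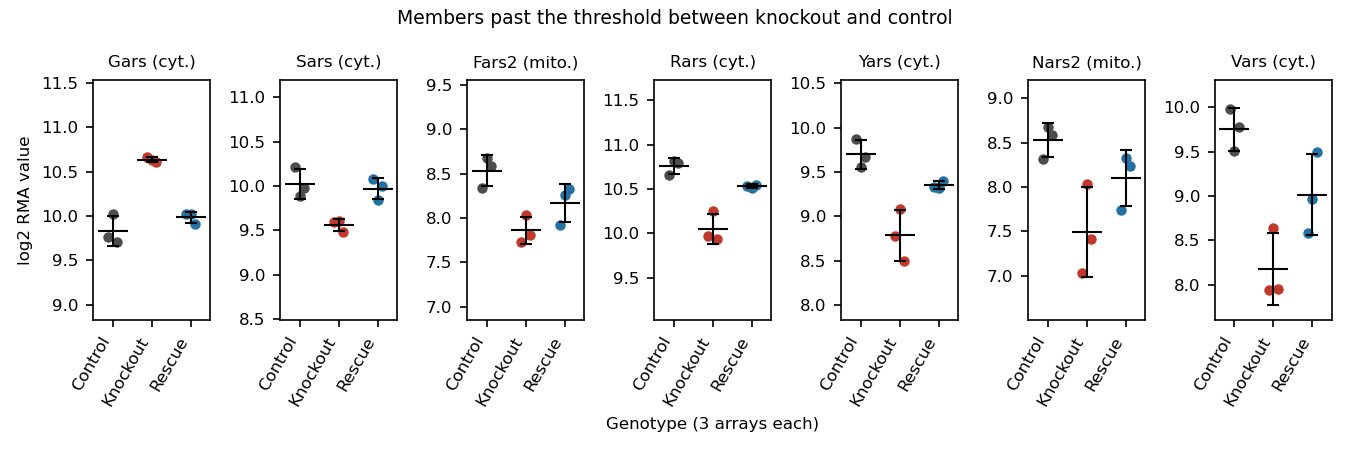
Log2 value of the 7 synthetase transcripts past the threshold between knockout and control, with each point 1 array, the horizontal line the group mean and the bars the standard deviation (n = 3). All panels span the same log2 range; Gars is high in knockout, and in the other 6 genes all knockout arrays lie below all control arrays.

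The other 15 cytosolic genes did not pass the test, with changes from -0.68 for Farsb to -0.04 for Qars, all below 0, and adjusted p from 0.12 to 0.87. Farsb, the beta subunit of the phenylalanine enzyme beside Farsa, read 10.14, 10.22 and 10.07 on control arrays and 9.25, 10.11 and 9.04 on knockout arrays. Knockout replicate 2 lay within the control values and the other knockout arrays well below them. Without knockout replicate 2 Farsb was past the threshold. Nars, for asparagine, changed by -0.25 (adjusted p = 0.24) and Aars, for alanine, by -0.35 (adjusted p = 0.18). The near-constant value of Qars rests on a probe set that reads the identical value, 10.34, on 5 of 9 arrays, and its other probe sets outside the dimmest 40% read -0.27 and -0.23. Tarsl2, a threonine enzyme, read 6.21, 6.23 and 6.52 on control arrays and 5.52, 6.24 and 6.08 on knockout arrays and lay in the dimmest 40% of genes in knockout and rescue. The direction of many of these 15 genes is not settled. With quantile normalization Hars, Qars and Wars turned above 0, without knockout replicate 3 Eprs, Farsa, Hars, Iars and Tars did, and with the mean of a gene's probe sets Farsa did. Without probe sets whose names end in _s_at, _x_at or _a_at, Farsa and Qars did. The Qars probe set left in that setting lay in the dimmest 40% of probe sets in every group and read 0.21. With array weights 9 of the 20 cytosolic genes, Gars included, lay above 0.

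In the mitochondrial set all 15 changes were below 0, with a median of -0.37, and 2 passed the test (13.3%, against 14.1% of all genes). Ears2 and Sars2 turned above 0 with the fibroblast covariate, without knockout replicate 1 and against knockout replicate 3 alone. Mars2 and Tars2 did so without knockout replicate 3, Mars2 also without control replicate 2 and with the mean of probe sets, and Sars2 and Tars2 with array weights. Nars2, the asparagine enzyme, read 8.32, 8.68 and 8.59 on control arrays, 7.03, 8.03 and 7.41 on knockout arrays, and 7.75, 8.33 and 8.24 on rescue arrays. The knockout arrays lay below control with no overlap but spread over a wide range, and replicate 2 was the nearest to control. The change was -1.03 ± 0.26, or 2.05-fold lower (limma adjusted p = 0.032). Fars2, the phenylalanine enzyme, read 8.34, 8.68 and 8.59 on control arrays, 7.74, 8.04 and 7.81 on knockout arrays, and 7.92, 8.26 and 8.33 on rescue arrays. Its knockout and control arrays did not overlap, and the change was -0.68 ± 0.15, or 1.60-fold lower (adjusted p = 0.020). A second Fars2 probe set read -1.05 (adjusted p = 0.0047 in the fit of all 34945 probe sets), while the second Nars2 probe set lay in the dimmest 40% of genes and read -0.01.

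Both mitochondrial calls depended on single arrays. The call of Fars2 ended without control replicate 2 (adjusted p = 0.079), control replicate 3 (0.080) or knockout replicate 1 (0.060), and that of Nars2 without control replicates 1, 2 or 3 (0.068, 0.11 and 0.11) or knockout replicate 1 (0.083). With the fibroblast covariate neither passed (0.081 for Fars2 and 0.14 for Nars2), although the changes themselves were -0.69 and -0.99. The other 13 genes lay between -0.54 for Rars2, the arginine enzyme, and -0.05 for Sars2, the serine enzyme (adjusted p from 0.092 to 0.87). Among them, Hars2 read -0.38 on the chosen probe set. Its other probe set, outside the dimmest 40%, read -0.48 (limma adjusted p = 0.019 in the fit of all 34945 probe sets). Hars2 passed with the mean of a gene's probe sets and without those ending in _s_at, _x_at or _a_at. Iars2, Rars2, Vars2 and Wars2 had knockout arrays wholly below control without passing the test. Mars2, for methionine, lay in the dimmest 40% of genes in every group, where background flattens changes, and Sars2 and Yars2 lay there in at least 1 group.

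**Figure D3:**
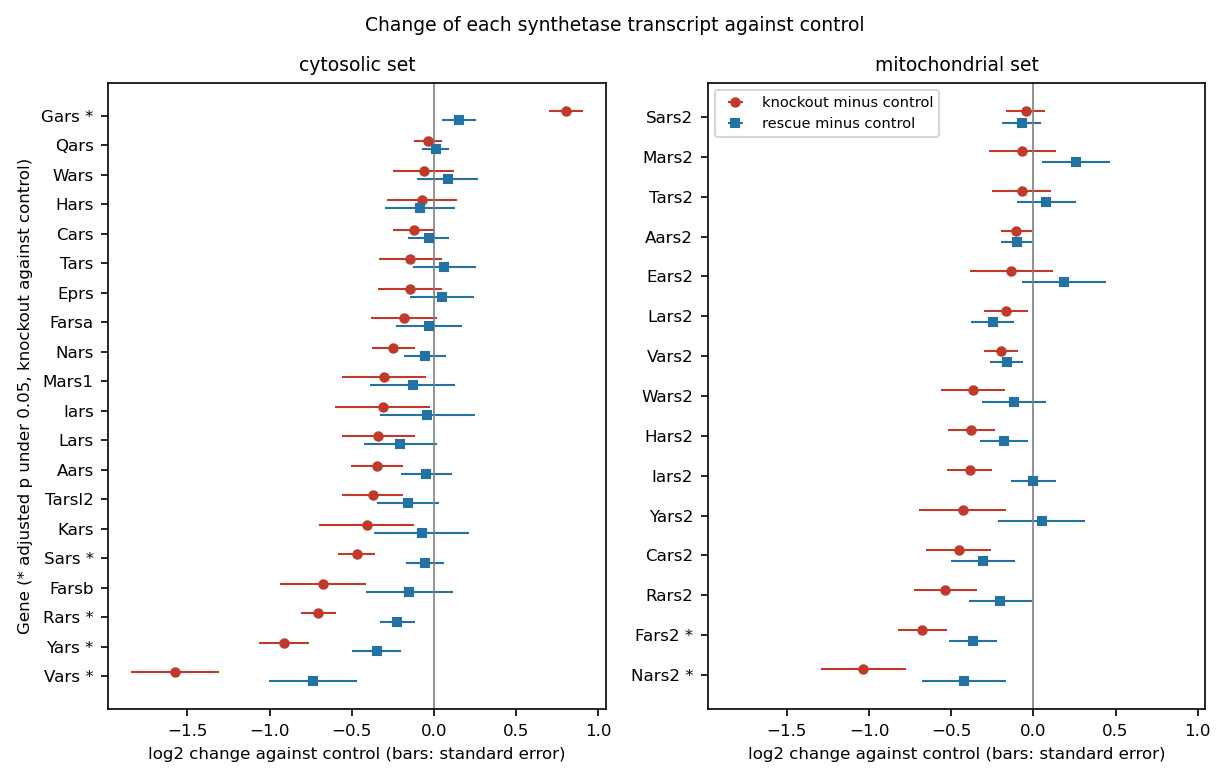
Log2 change of each synthetase transcript against control, with circles for knockout, squares for rescue and bars for the standard error from limma (n = 3 per group); an asterisk marks genes past the threshold between knockout and control. Most circles lie left of 0 and the squares nearer to it, while Gars lies at 0.81 in knockout and 0.15 in rescue.

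For 15 amino acids both a cytosolic and a mitochondrial enzyme were measured, which gave 17 pairs because phenylalanine and threonine have more than 1 cytosolic gene. Both members lay below 0 in all 17 pairs, and 0 pairs had both members past the test, while 7 had 1. Fars2 was counted with both Farsa and Farsb, and Gars, the sole gene that rose, had no pair. Over all genes 56.1% lay below 0 and 14.1% were called. The pairs did not change to the same extent. For valine, Vars changed by -1.57 and Vars2 by -0.20, for serine Sars by -0.47 and Sars2 by -0.05, and for asparagine the order was the other way, with Nars at -0.25 and Nars2 at -1.03. For arginine and tyrosine both members lay well below 0, with Rars at -0.70 and Rars2 at -0.54, and Yars at -0.91 and Yars2 at -0.43. The mitochondrial member had the lower value in 6 of 17 pairs. These differences within pairs were not tested.

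**Figure D4:**
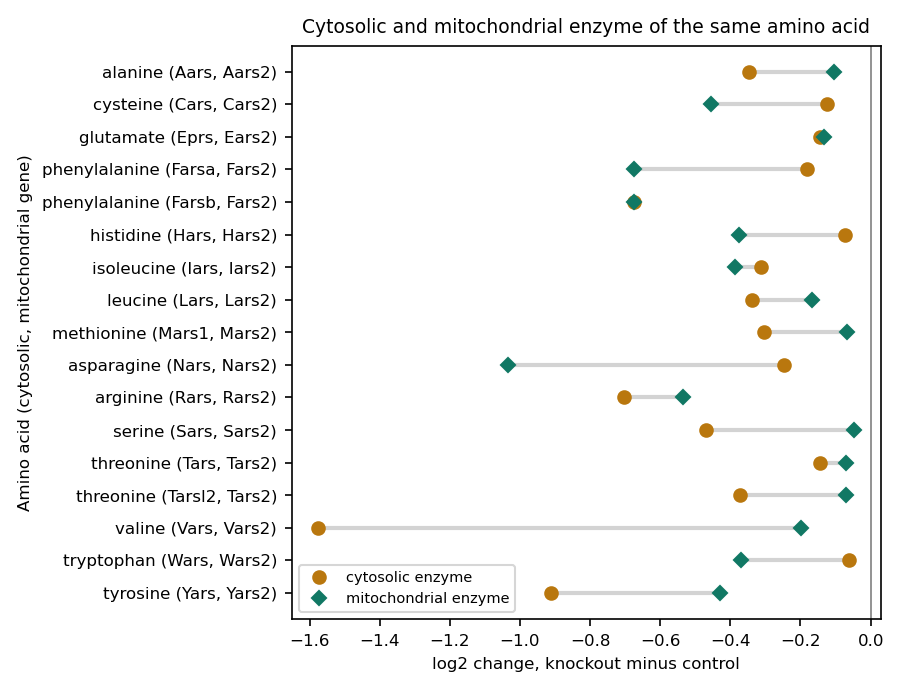
Log2 change between knockout and control of the cytosolic enzyme (circle) and the mitochondrial enzyme (diamond) of the same amino acid, joined by a line. All points lie below 0, and valine and asparagine show the widest gaps, in opposite order.

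Several cytosolic synthetases sit in a multi-synthetase complex, held together by scaffold proteins, while the others act as free enzymes. Of the 7 complex members measured (Eprs, Iars, Kars, Lars, Mars1, Qars and Rars) only Rars passed the test (14.3%, against 14.1% of all genes), with a median of -0.31. Outside the complex 1 of 13 rose and 3 fell (30.8% called), with a median of -0.25. Of the scaffolds, Aimp2 read 9.14, 9.43 and 9.35 on control arrays and 8.26, 8.85 and 8.38 on knockout arrays and fell by 0.81 ± 0.16 (limma adjusted p = 0.013). Aimp1, which binds Rars in the complex, changed by -0.50 (adjusted p = 0.069) and Eef1e1 by -0.24 (adjusted p = 0.52). Without control replicate 2 or 3 the fall of Aimp2 no longer passed (adjusted p = 0.056 and 0.060). By catalytic fold, 3 of 18 class I enzymes fell, and among 16 class II enzymes 1 rose and 3 fell (16.7% and 25.0% called, against 14.1% of all genes). Eprs, a fused enzyme for glutamate and proline, has 1 domain of each class.

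Knockout arrays differed among themselves more than control arrays did, with a median standard deviation of the 35 genes of 0.26 in knockout, 0.15 in control and 0.22 in rescue. Over all genes it was 0.23, 0.10 and 0.14. Knockout replicate 2 was the highest knockout array for 29 of 35 genes. Replicate 3 was the lowest for 16 of 20 cytosolic genes, and replicate 1 for 10 of 15 mitochondrial genes. The median of the cytosolic set in knockout replicates 1, 2 and 3 lay -0.26, 0.01 and -0.56 from the control mean, and that of the mitochondrial set -0.58, -0.11 and -0.28. The 7 complex members lay -0.27, 0.18 and -0.79 from it. Replicate 2 carried the highest pancreas acinar markers of the knockout arrays, and replicates 1 and 2 the high fibroblast and smooth muscle markers. On all 3 the median of the mesothelium markers lay above control, with 2 of the 5 below it on replicate 3. The part of these cells in the synthetase values was not tested.

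**Figure D5:**
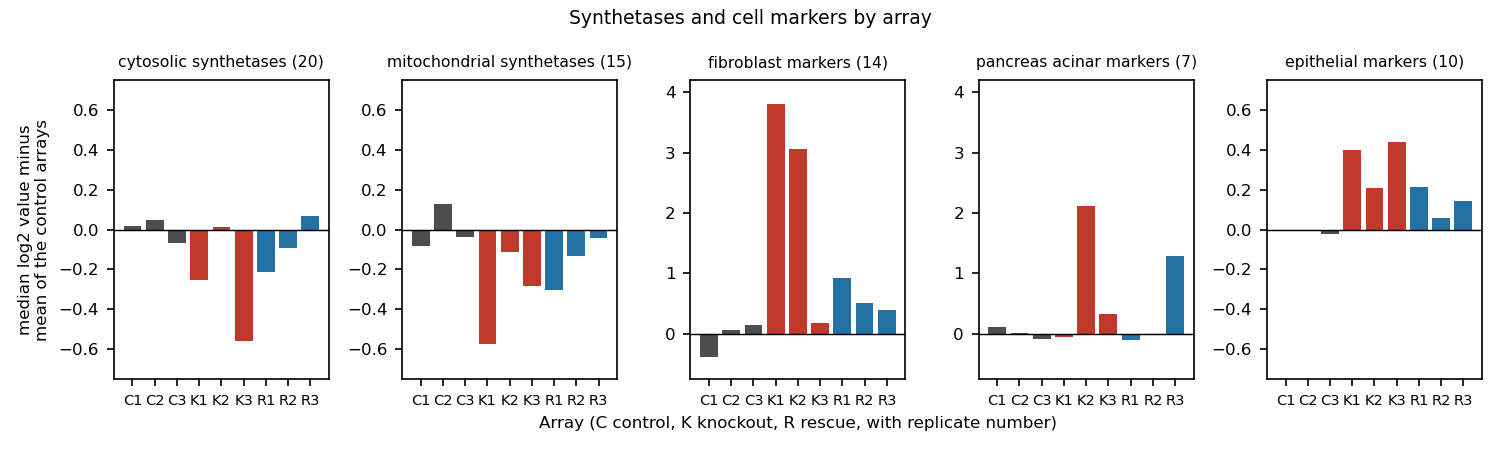
Median log2 value of the cytosolic and mitochondrial synthetases and of fibroblast, pancreas acinar and epithelial markers on each of the 9 arrays, minus the control mean, with the number of genes above each panel and different vertical scales. The cytosolic set is lowest in knockout replicate 3 (-0.56), where fibroblast markers are near control, and the mitochondrial set in replicate 1 (-0.58), where they are highest.

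Rescue and knockout were compared to ask whether the added receptor goes with a change of these transcripts. This comparison shares its knockout arrays with the previous one. Of the 35 genes, 31 lay above 0 and 4 below (42.9% of all genes lay below), with a median of 0.21 against 0.04 over all genes. The sole gene past the test was Gars, which was lower in rescue by 0.65 ± 0.10 (-0.65, or 1.57-fold; limma adjusted p = 0.021), while 0 rose. Among all genes 2.31% were called, 1.23% higher and 1.08% lower. At an unadjusted p under 0.05, 6 synthetases were higher and 1 lower, where 18.9% of all genes were past it in either direction. The Gars call ended without knockout replicate 1 (adjusted p = 0.058), knockout replicate 2 (0.056) or rescue replicates 1, 2 or 3 (0.060, 0.071 and 0.088), with changes from -0.67 to -0.62 whichever array was left out.

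The genes that fell in knockout were above knockout in rescue without passing the test. The change was 0.84 ± 0.27 for Vars (limma adjusted p = 0.15), 0.56 ± 0.15 for Yars (0.10), 0.48 ± 0.11 for Rars (0.060) and 0.42 ± 0.11 for Sars (0.11). Rars passed without knockout replicate 2 (0.042) or knockout replicate 3 (0.037). All rescue arrays lay above all knockout arrays for Aars, Rars, Sars, Yars and Iars2, where 10.6% of all genes did so, and below them for Gars alone, against 7.5%. In the mitochondrial set 0 of 15 passed, with a median of 0.25 and the largest value, 0.61, for Nars2 (adjusted p = 0.25).

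Rescue against control called 0 of 35 synthetases, where limma called 0.126% of all genes, 0.055% higher and 0.0715% lower. Of the 35, 25 lay below 0, against 52.4% of all genes. At an unadjusted p under 0.05, 3 genes were lower (Vars, Yars and Fars2), where 6.62% of all genes were past it. Changes ran from -0.74 for Vars (adjusted p = 0.58) to 0.26 for Mars2, with a median of -0.05 in the cytosolic and -0.12 in the mitochondrial set. Gars differed by 0.15 ± 0.10 (adjusted p = 0.99). All rescue arrays lay below all control arrays for Rars, Vars, Yars, Fars2, Lars2 and Rars2, against 9.9% of all genes, and above them for 0 genes, against 6.74%. Vars in rescue ranged from 8.58, near the highest knockout array, to 9.49, near the lowest control array. Without rescue replicate 1 the median of the 35 genes was 0.01, and without rescue replicate 3 it was -0.14.

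Genes that act beside the synthetases were counted in the same fit of knockout against control. Over all genes 8.77% fell and 5.29% rose, the shares to set beside each count below. In mitochondria, Pars2 fell by 0.46 ± 0.11 (limma adjusted p = 0.030). Of 4 genes for transamidation of glutaminyl tRNA and formylation of the initiator tRNA, 2 fell, Gatc by 0.51 (0.019) and Mtfmt by 0.64 (0.034), and Gatb and Qrsl1 lay at -0.52 (0.059) and -0.73 (0.064). Of 9 mitochondrial translation factors measured, 2 fell (22.2%): Mtrf1l, a release factor, by 0.66 (0.022) and Mrrf, which recycles ribosomes, by 0.65 (0.044). All 9 lay below 0, with a median of -0.52. In the cytosol, 0 of 4 elongation factors passed, also at an unadjusted p under 0.05, and their median was -0.09. Among 6 genes for editing of mischarged tRNA, Dtd1, a D-aminoacyl-tRNA deacylase, fell by 0.43 (0.033). Without control replicate 1, 2 or 3 or knockout replicate 1, 0 of these mitochondrial and editing genes passed. Without rescue replicate 1 only 1 of the transamidation and formylation genes and 1 of the mitochondrial factors did, and without rescue replicate 2 only 1 of the former. Without rescue replicate 1 or 2, 0 of the editing genes did. Mtfmt also no longer passed without rescue replicate 3 (0.053), nor Mrrf without knockout replicate 3 (0.058).

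The genes that turn seryl tRNA into selenocysteine tRNA and deliver it to ribosomes lay lowest of the lists counted. Eefsec, the elongation factor for selenocysteine, read 8.48, 8.08 and 8.21 on control arrays and 6.67, 6.93 and 7.45 on knockout arrays, a change of -1.24 ± 0.21 (limma adjusted p = 0.0080). Sephs2, which makes the selenium donor, fell by 0.83 ± 0.17 (0.016). Pstk, the kinase that acts on seryl tRNA, and Sepsecs, the enzyme of the next step, lay at -0.80 (0.073) and -0.78 (0.098), and the median of the 5 genes was -0.80. Eefsec passed whichever array was left out. Sephs2 did not without control replicate 1 (0.067) or 3 (0.066), and without knockout replicate 2 or 3, 3 of the 5 passed. Of 18 genes for tRNA export, end maturation and processing, Elac1, a tRNA 3′ processing enzyme, fell by 0.69 (0.010) and the others did not pass. That is 5.56% of the list, against 8.77% of all genes. When fibroblast markers were a covariate 5 of the 18 fell, while without control replicate 3 Elac1 no longer passed (0.053).

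On a list of 24 genes of GCN2 sensing and ATF4 targets, 5 rose (20.8%, against 5.29% of all genes) between knockout and control. Past the test 0 fell (against 8.77%), and the median was 0.22. At an unadjusted p under 0.05, 8 were higher and 3 lower. By array, the list's median lay 0.35, 0.25 and -0.06 from the control mean in knockout replicates 1, 2 and 3. On knockout replicate 3, 12 of the 24 genes lay below that mean. In rescue replicates 1, 2 and 3 the list's median lay 0.18, 0.14 and 0.27 above it. Vldlr, a lipoprotein receptor, read 6.53, 7.26 and 6.82 on control arrays, 9.56, 9.86 and 9.69 on knockout arrays, and 8.08, 8.50 and 8.24 on rescue arrays. The groups did not overlap, and the rise to knockout was 2.84 ± 0.19 (limma adjusted p = 2.8e-04). Ppp1r15a, which directs removal of the phosphate that GCN2 adds to eIF2, rose by 1.40 ± 0.19 (0.0035), Chac1, which degrades glutathione, by 0.71 (0.042), Eif4ebp1, a brake on cap-dependent translation, by 0.57 (0.034) and Nupr1, a stress-induced regulator, by 1.34 (0.045). Atf4 itself read 10.48, 10.36 and 10.34 on control arrays and 10.78, 10.65 and 10.80 on knockout arrays, with a change of 0.35 (0.051). Vldlr and Ppp1r15a passed whichever array was left out, while Chac1, Eif4ebp1 and Nupr1 each lost the call without some single arrays, with adjusted p up to 0.15, 0.12 and 0.15. Asns, which makes asparagine and is a standard ATF4 target, lay at 0.30 (0.48). Without control replicate 2 or 3 the list held 2 genes past the test and without knockout replicate 3 it held 7 higher and 1 lower. With control replicate 1, knockout replicate 1 or 2, or rescue replicate 2 or 3 left out it held 3 higher, beside 1 lower without knockout replicate 2 or rescue replicate 3.

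Of 10 cytosolic synthetases known as ATF4 targets, Gars rose, Sars fell and 8 did not pass, with a median of -0.19. The other 10 cytosolic genes had 3 that fell (Vars, Yars and Rars) and a median of -0.39. Yars was counted there although its promoter held the ATF4 element, and the difference between the 2 lists was not tested. The shares called were 20% and 30%, against 14.1% of all genes. In rescue against knockout and rescue against control, Vldlr was the sole gene past the test on the pathway lists counted here, cell and sex markers apart. It lay at -1.44 ± 0.19 (limma adjusted p = 0.011) and 1.40 ± 0.19 (0.049). The first call ended without rescue replicate 3 (adjusted p = 0.051). The second remained only when knockout replicate 3 was the array left out, and otherwise its adjusted p was 0.062 to 0.25. Of 10 genes of Myc and growth signalling, Mycn, a Myc family factor, fell by 0.96 (0.025) and the others did not pass, and Myc lay at 0.93 (0.14). The share that fell was 10%, against 8.77% of all genes. Mycn no longer passed with control replicate 2 or 3 left out (0.093 and 0.099), nor with knockout replicate 1 or 2 left out (0.052 and 0.062).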

How the data were processed

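The deposited values are log2 values, 1 per probe set and array, and per the submitters' processing notes the authors used Partek 6.5 and RMA. Which step each performed, and any filter on probe sets, is not given in the sources used here. Of 45101 probe sets, 34945 carried 1 gene symbol and were used as deposited. The columns' medians lay between 5.93 and 6.00, and arrays have no read depth, so their number limits the precision. A model of 3 group means was fitted to all 9 arrays and all 18193 genes with limma 3.58.1 (lmFit and eBayes) in R 4.3.3, with version 1.17.8 of data.table. Tests were two-sided, with Benjamini-Hochberg adjustment over all genes and a threshold of 0.05, and no pseudocount was needed. Folds are 2 to the power of the log2 change. An exact permutation test of 3 arrays against 3 cannot go below p = 0.10. The fit was run on simulated data with independent noise of equal spread in all groups. The real groups differ in spread, so that run checks the code and not the calls given here.

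The synthetases, the lists and the tests were chosen with earlier results of these data known, so a direction already seen there is no independent support. Full values are given for synthetases past the threshold in any comparison; other synthetases were named as the brightest or dimmest in control or as the extremes of a comparison, and by counts or ranges. Of each other list up to 4 genes with the smallest p are named, with Atf4, Pars2 and the scaffolds. Nupr1, Asns, Myc, Aars and the genes in motif matches or pairs were named after their values were seen. Of 187 pathway and marker symbols 174 were measured. Values of different probe sets were not compared as levels. Alternatives covered the choice of probe set, scaling, dim genes, the spread model, array weights, 2 groups alone, the replicate block, a fibroblast covariate, knockout replicate 3 as the sole knockout array and each array left out. Some items are not reported here.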

Additional observations from a re-analysis of the deposited data

How the results depend on the processing

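Between knockout and control, Gars, Rars, Vars and Yars kept their direction and passed the test in all 20 alternatives run, with changes of 0.72 to 0.90, -0.81 to -0.58, -1.81 to -1.27 and -1.20 to -0.69. The count of cytosolic synthetases past the test was 5, went to 8 when knockout replicate 3 stood alone for its group, where that array is assumed to vary like the other groups, and lay between 4 and 5 with 1 array left out. The mitochondrial count was 2, with 4 under median centring, 1 with only 2 groups in the fit, 0 with the fibroblast covariate and 0 to 3 with 1 array left out. For cytosolic genes in rescue against knockout it was 1, with 2 under median centring, 0 with 2 groups alone, 4 with the fibroblast covariate, 4 when knockout replicate 3 stood alone and 0 to 2 with 1 array left out. The mitochondrial count of that comparison and both counts of rescue against control were 0 in every alternative. The cause of these shifts was not tested. Sars ended its call in 8 of 19 alternatives, Nars2 in 6 of 20, Fars2 in 5 of 19 and Gars, in rescue against knockout, in 7 of 20. The difference of Sars between rescue and control, -0.05, reversed to 0.039 without control replicate 1 and to 0.01 without rescue replicate 2 and lay between -0.12 and 0.039 with any array left out.

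Deviations from the group means were correlated between same-numbered arrays: of 9 pairs across groups, 2 correlated over 0.1 (r from -0.22 to 0.40). Differently numbered pairs were not compared, so whether the replicate numbers pair the arrays is not settled. With the replicate block the counts were again 5, 2 and 1, while calls over all genes went from 2559 to 2404 for knockout against control, from 420 to 257 for rescue against knockout and from 23 to 12 for rescue against control. Over all genes, calls for knockout against control rose to 6395 with array weights and fell to 1655 with 2 groups alone. With 1 array left out they lay between 936 (without control replicate 3) and 4998 (without knockout replicate 3). The median standard error of a synthetase's change was 0.19, with 3 arrays per group.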
